A study of Mus musculus with 24 samples.

Results

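Nuclear receptors are transcription factors that, in most cases, change their activity when a small lipid-soluble molecule binds them. The 39 genes described here were taken from the array annotation by a pattern over gene symbols that covers the Nr-numbered receptors, the PPARs, the retinoid, ROR, thyroid hormone and vitamin D receptors and symbols beginning with Esr, leaving out Nr0b2 and Nr1h4. They are 39 of 16504 named genes on the arrays, and each was read by 1 probe. Of the 39, 37 encode receptors. The other two match the pattern by their letters only: Esrp2 encodes an epithelial splicing regulator and Nr2c2ap a protein named for its association with Nr2c2.

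Male Abcb4 -/- mice (FVB.129P2-Abcb4tm1Bor/J) were compared with male FVB/NJ Abcb4 +/+ mice at 3, 6, 9 and 20 weeks. Abcb4 moves phosphatidylcholine into bile, and mice without it develop bile duct injury and fibrosis. Total RNA of whole liver from both genotypes was hybridised together on 24 arrays with 2 colours, 6 per week, and knockout RNA carried Cy5 on 3 of the 6. With 5 mice of each genotype per week and 1 array described as a dye swap, but not identified, at least 1 array per week repeats mice, and p-values count more arrays than mice. Weeks are those of the array titles, whereas another label starts the count at weaning and all source names read 3 weeks.

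Most liver receptors act as pairs: the retinoid X receptors join the retinoic acid, thyroid hormone, PPAR, LXR and vitamin D receptors on DNA, so one family sits at the centre of many pathways. Steroid receptors act mainly as pairs of themselves, and several orphan receptors bind as single molecules. In liver these proteins couple fatty acids, oxysterols, retinoids, thyroid hormone and glucocorticoids to the genes of lipid, bile acid and glucose metabolism.

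All values are log ratios of knockout over wild type, written as log2 because the labels do not state the base. Their direction rests on taking Abcb4 as lower in the knockout, and with the opposite sign every rise below would be a fall. On that footing Abcb4 averaged -0.87 ± 0.24, -1.57 ± 0.37, -1.42 ± 0.66 and -1.34 ± 0.34 at 3, 6, 9 and 20 weeks and lay below 0 on 24 of 24 arrays. Errors here and below are SDs over the 6 arrays of a week. Since only ratios were deposited, no receptor's level can be set against another's, and the labelled tissue could not be checked by the level of its markers. In bulk liver RNA, fewer cells of a type and less RNA per cell cannot be told apart.

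Of the 39 genes, 1, 6, 6 and 10 passed the test at 3, 6, 9 and 20 weeks, at a limma p adjusted over all 20861 items under 0.05. These were 2.56%, 15.4%, 15.4% and 25.6% of the genes, against 7.39%, 20.9%, 21.3% and 13.5% of all items. At 20 weeks all 10 were lower in the knockout and 0 were higher, whereas 5.37% of all items were lower and 8.09% higher; with the week fitted by itself, 9 were lower and 1, Esrra, higher. The median ratio of the 39 genes was -0.071 at 20 weeks, against -0.00342 for all items, and 28 of the 39 lay below 0. At 3, 6 and 9 weeks the shares called lower were 2.56%, 10.3% and 7.69% of the genes, against 3.75%, 10.1% and 10.9% of all items. The shares called higher at 6 and 9 weeks were 5.13% and 7.69%, against 10.8% and 10.4%, and no gene of the 39 was called higher at 3 weeks, against 3.64%. At an unadjusted limma p under 0.05, 3 genes were higher at 3 weeks, and at 20 weeks 2 were higher and 15 lower. No share of all items was computed at this unadjusted p, here or for the unadjusted counts below. The 20-week count depended on arrays 1 and 2 of that week: it was 3 without array 1, when 9.37% of all items passed and 3.54% were lower, and 5 without array 2, when 8.73% passed and 3.25% were lower. Without both it was 2, when 5.71% of all items passed and 2.11% were lower.

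**Figure D1:**
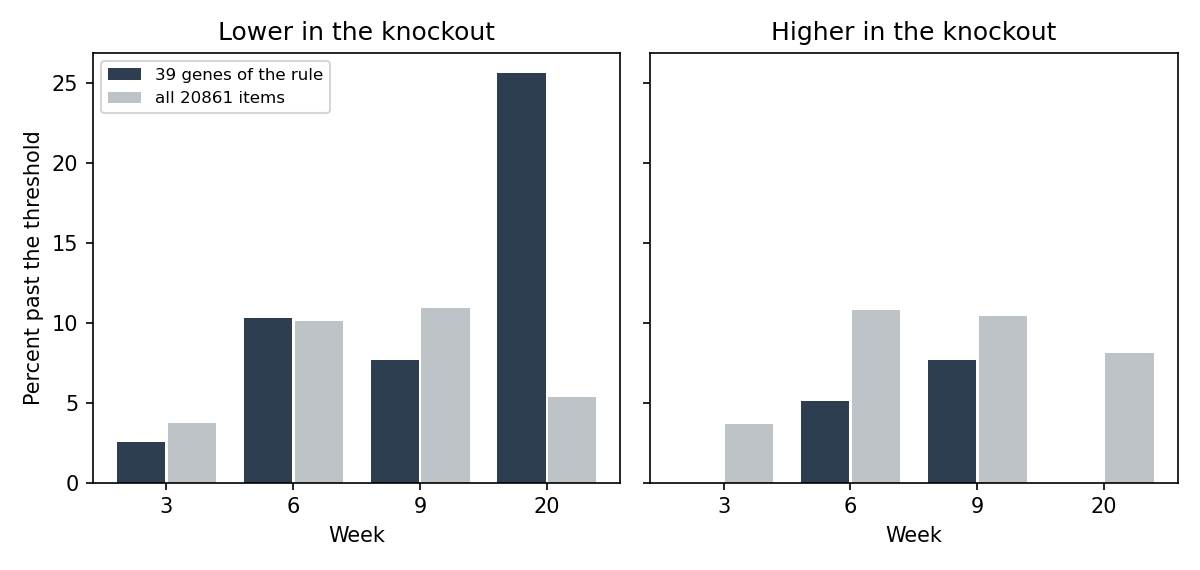
Percent of items past the adjusted p of 0.05 by week, lower in the knockout (left panel) and higher (right panel), for the 39 genes (dark bars) and all 20861 items (grey bars). The dark bar stands above the grey one by the widest margin for lower calls at 20 weeks, 25.6% against 5.37%, and is absent for higher calls at 3 and 20 weeks.

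Across the time course 19 of the 39 genes passed in at least 1 week (48.7%, against 35.3% of all items), and 0 passed in opposite directions at different weeks, although Rora did so with each week fitted by itself. The other 20 genes, each described with its family below, passed in no week.

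**Figure D2:**
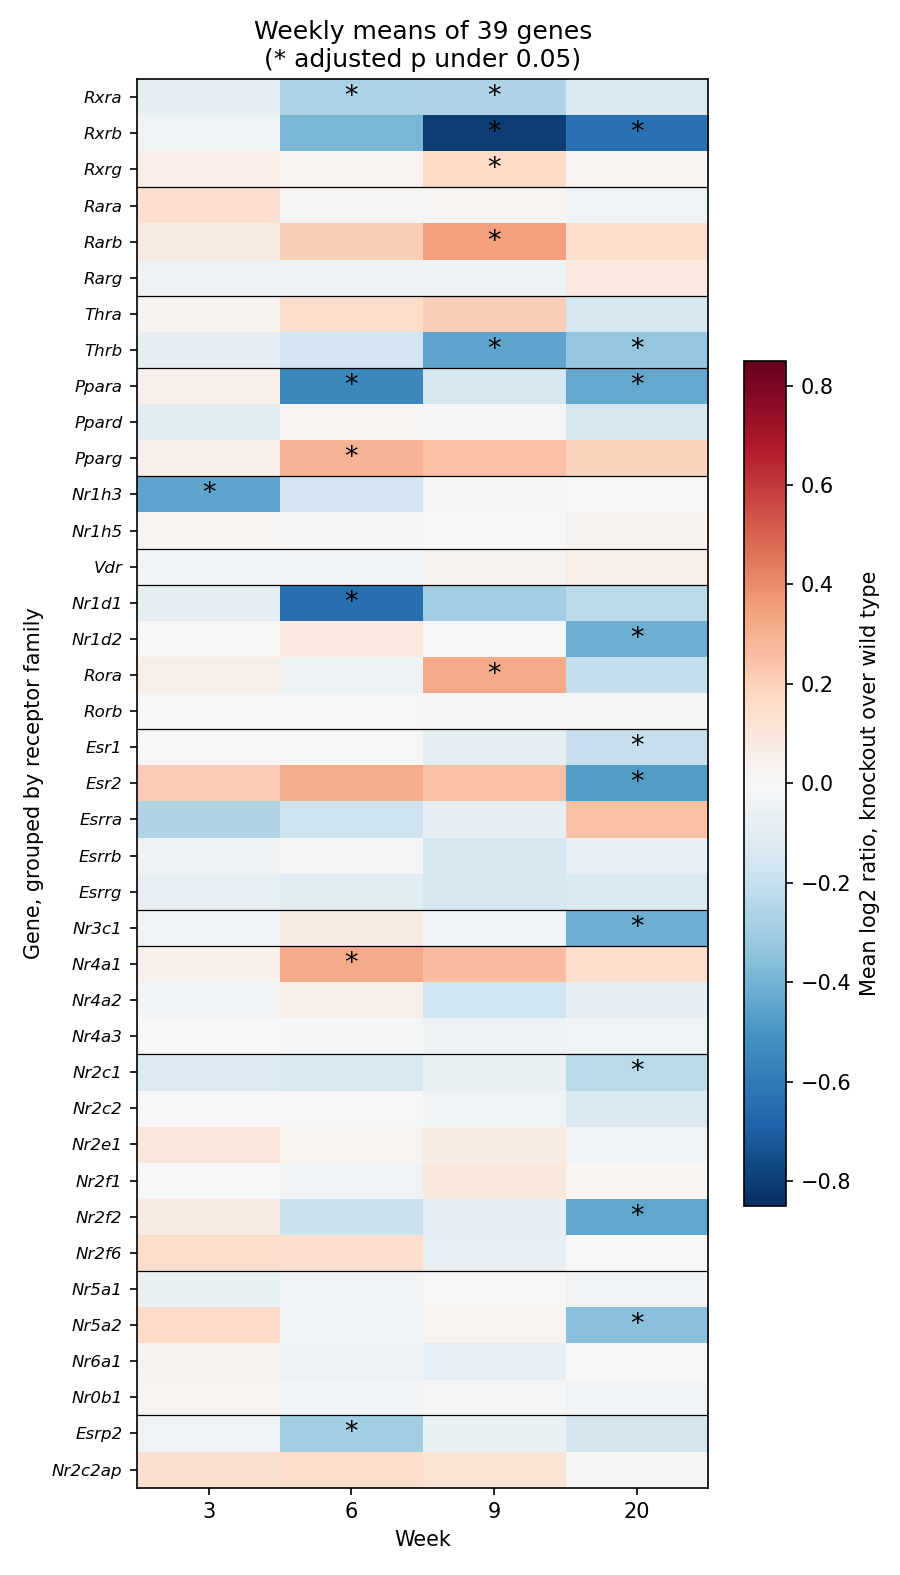
Mean log2 ratio of knockout over wild type (colour scale) for each of the 39 genes (one line per gene, grouped by receptor family) at 3, 6, 9 and 20 weeks, over 6 arrays per week; an asterisk marks an adjusted p under 0.05. Blue cells marked at 20 weeks are spread over 8 of the receptor families, and the lowest mean is Rxrb at 9 weeks, -0.80.

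Thrb, the thyroid hormone receptor beta and the main form in hepatocytes, had the smallest p of the 39 genes. It was lower in knockout livers at 9 and 20 weeks. At 9 weeks its ratios on arrays 1 to 6 were -0.20, -0.67, -0.36, -0.26, -0.54 and -0.68, with a mean of -0.45 ± 0.21 (limma adjusted p = 1.84e-05). At 20 weeks they were -0.16, -0.14, -0.24, -0.47, -0.62 and -0.35, with a mean of -0.33 ± 0.19 (limma adjusted p = 0.00101). All 12 of these arrays lay below 0, and both calls were kept under every alternative setting and with each array left out. At 3 and 6 weeks the means were -0.07 ± 0.13 and -0.16 ± 0.14 and did not pass (limma adjusted p of 0.658 and 0.0696); at 6 weeks the call appeared when array 6 was left out (-0.21, limma adjusted p = 0.0313). Thra, the alpha form, did not pass in any week, with means from -0.15 at 20 weeks to 0.21 at 9 weeks. Its 9-week value would pass without array 2, at 0.34 (limma adjusted p = 0.0107), the array on which it was -0.40.

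Thrb has 2 annotated starts in the RefSeq table of mouse build GRCm38.p6, and the 250 bases before each are shown because the windows differ in the receptor-related letters they hold. The first, at chr14:17660710-17660959 on the plus strand, holds the half-site letters AGGTCA, which receptors of this superfamily recognise, beginning 184 bases before the start. The second, at chr14:17981394-17981643 on the plus strand, holds CACGTG, the letters of the E-box bound by clock proteins, beginning 193 bases before the start. Capitals mark these letters.
Thrb start 1: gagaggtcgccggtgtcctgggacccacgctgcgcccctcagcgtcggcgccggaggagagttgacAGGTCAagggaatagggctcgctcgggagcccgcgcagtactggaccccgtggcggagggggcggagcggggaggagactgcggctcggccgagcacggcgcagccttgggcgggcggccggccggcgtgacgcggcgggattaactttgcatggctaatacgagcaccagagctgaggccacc
Thrb start 2: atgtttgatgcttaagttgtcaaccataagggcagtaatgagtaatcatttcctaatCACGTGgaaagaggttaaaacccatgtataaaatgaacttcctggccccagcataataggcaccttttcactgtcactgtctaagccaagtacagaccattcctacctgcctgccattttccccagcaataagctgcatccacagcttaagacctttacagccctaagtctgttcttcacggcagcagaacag

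Searched on both strands, AGGTCA occurs in 14.0% of all 32851 windows of this length and CACGTG in 6.02%, so a match describes the letters and does not mark a bound site. Of the 35 genes of the list with a window, 9 hold AGGTCA and 3 hold CACGTG at 1 start or more; of all 27025 genes with a window, 15.8% and 6.86% do. The cyclic AMP response letters TGACGTCA stand in 1 of the 35, Nr2e1, and in 1.77% of genes.

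Of 12 measured genes tied to thyroid hormone action, 3, 3, 2 and 2 were higher and 1, 4, 5 and 3 were lower at 3, 6, 9 and 20 weeks. Over all items, 3.64%, 10.8%, 10.4% and 8.09% were higher in those weeks and 3.75%, 10.1%, 10.9% and 5.37% lower. The counts of every gene list below are to be read beside these shares. Dio1, the liver deiodinase that makes active hormone and is itself induced by it, averaged 0.03 ± 1.14, -1.11 ± 0.26, -1.43 ± 0.29 and -1.24 ± 0.21 over the weeks and passed at the last 3 of them (largest limma adjusted p = 0.00147). Serpina7, which encodes the plasma carrier of thyroxine, was higher in all 4 weeks, between 0.89 and 1.58. Crym, a cytosolic hormone-binding protein, averaged 0.28, 0.48, 0.31 and 0.22 and passed at the first 3 weeks. Bcl3, a nuclear co-factor of NF-kappa B, averaged 0.52, 0.72, 0.31 and 0.58 and passed at 3, 6 and 20 weeks.

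Ppara, the fatty acid sensor that drives hepatic fatty acid oxidation, was lower at 6 and 20 weeks. At 6 weeks the 6 arrays read -0.64, -0.28, -0.33, -0.71, -0.74 and -0.60 in order of their numbers. At 20 weeks they read -0.38, -0.29, -0.28, -0.63, -0.41 and -0.61. Every array of both weeks lay below 0. The means were -0.55 ± 0.20 at 6 weeks (limma adjusted p = 2.86e-04) and -0.43 ± 0.15 at 20 weeks (limma adjusted p = 0.00379), and both calls were kept with each array left out. At 3 and 9 weeks the arrays fell on both sides of 0, from -0.34 to 0.45 and from -0.67 to 0.16. The means there were 0.05 ± 0.30 and -0.15 ± 0.29 and did not pass.

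Pparg, the fat-cell form that stores lipid, ran the other way. It rose at 6 weeks to 0.29 ± 0.18, with 5 of 6 arrays above 0 (limma adjusted p = 0.0267). That call ended when any of arrays 2, 3, 4 or 6 was left out (values of 0.26 to 0.36 over all arrays left out in turn, limma adjusted p up to 0.0907). It also ended with the arrays scaled to a common spread and with the replicate number as a block. At 9 and 20 weeks Pparg averaged 0.25 ± 0.28 and 0.19 ± 0.15, each with 5 of 6 arrays above 0 and neither past the test; without array 2 its 9-week value was 0.33 (limma adjusted p = 0.0128). Ppard, the widely expressed form, stayed between -0.15 and 0.02 and passed in no week.

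Of 23 measured PPAR target genes, 12 were lower and 2 higher at 6 weeks, the first week in which Ppara was lower, and 4 were lower and 3 higher at 20 weeks. At 3 and 9 weeks 3 and 6 were lower and 1 and 3 higher. Acot1, a cytosolic acyl-CoA thioesterase, averaged -0.05 ± 0.13, -1.77 ± 0.39, -0.99 ± 0.42 and -0.43 ± 0.32 and passed from 6 weeks on. Cpt2, the inner-membrane carnitine palmitoyltransferase, was lower in all 4 weeks, at -0.27, -0.81, -0.54 and -0.29. Cd36, a fatty acid uptake protein that PPAR gamma also induces, averaged 0.32, 1.16, 1.34 and 0.83 and was higher from 6 weeks on. Vnn1, a pantetheinase, was higher at 3, 9 and 20 weeks, at 0.70, 0.44 and 0.37.

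The retinoid X receptors moved in both directions. Rxra, the main liver form, was lower at 6 and 9 weeks: its arrays read -0.07, -0.16, -0.38, -0.40, -0.43 and -0.18 at 6 weeks and -0.28, -0.44, 0.06, -0.38, -0.31 and -0.22 at 9 weeks. Of these 12 arrays, only array 3 at 9 weeks lay above 0. The means were -0.27 ± 0.15 and -0.27 ± 0.17 (limma adjusted p of 0.00356 and 0.00362), and both calls held with each array left out. The 9-week call ended with the week fitted by itself. At 3 and 20 weeks Rxra averaged -0.08 ± 0.09 and -0.14 ± 0.18, past the test in neither; without array 6 the 20-week value was -0.21 (limma adjusted p = 0.0350).

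Rxrb had the lowest mean of all 39 genes at 9 and at 20 weeks, and at 9 weeks the widest spread. At 9 weeks its arrays read -0.24, -0.94, -0.64, -0.60, -2.13 and -0.27 and at 20 weeks -1.01, -0.50, -0.40, -0.43, -0.88 and -0.59. All 12 were below 0, and array 5 at 9 weeks stood far under the others. The means were -0.80 ± 0.70 (limma adjusted p = 0.00184) and -0.63 ± 0.25 (limma adjusted p = 0.0183). Leaving out each 9-week array gave -0.93 to -0.53 and kept the call, although it ended with that week fitted by itself. The 20-week call ended without array 1 or array 5 (values of -0.67 to -0.56 over all arrays left out in turn, limma adjusted p up to 0.0740). At 6 weeks Rxrb ranged from -1.01 to 0.26 and averaged -0.39 ± 0.48 without passing, and at 3 weeks it averaged -0.03 ± 0.15.

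Rxrg, a form found mainly in muscle and brain, rose at 9 weeks by a small amount. Its arrays read 0.35, 0.25, 0.18, -0.03, 0.23 and 0.04, 5 of 6 above 0, with a mean of 0.17 ± 0.14 (limma adjusted p = 0.00910). The call held with each array left out and ended with the week fitted by itself. In the other weeks its means lay between 0.02 and 0.06.

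Among the retinoic acid receptors, Rarb, which retinoic acid induces through an element in its own promoter, was the only one to pass. At 9 weeks its arrays read 0.10, 0.67, 0.34, 0.33, 0.66 and -0.01, with a mean of 0.35 ± 0.28 (limma adjusted p = 0.00882). The call ended without array 2 or array 5, the arrays with the highest ratios (lowest value 0.27, limma adjusted p up to 0.0540), and with the week fitted by itself. At 3, 6 and 20 weeks Rarb averaged 0.07, 0.21 and 0.15 without passing. Rara and Rarg stayed between -0.03 and 0.14 and between -0.05 and 0.08.

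Of 16 measured genes of retinoid handling, 2, 1, 2 and 2 were higher and 1, 3, 1 and 1 lower at 3, 6, 9 and 20 weeks. Cyp26a1, which breaks down retinoic acid and is induced by it, averaged 0.06 ± 0.04, -1.06 ± 0.45, -0.13 ± 0.68 and -0.17 ± 0.38 and passed at 6 weeks only (limma adjusted p = 1.88e-04). Rarres2, the gene of the secreted chemerin protein, was higher in all 4 weeks, between 0.62 and 0.82. Aldh1a2, which makes retinoic acid, rose at 9 weeks to 0.19 ± 0.08, and its relative Aldh1a3 averaged -0.12 ± 0.10 in that week, lower past the test.

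Rxra has 2 starts in the same table. The window of the first holds none of the 3 motifs. That of the second, at chr2:27709042-27709291 on the plus strand, holds AGGTCA on each strand. These letters begin 87 bases before the start as the reverse complement TGACCT and 48 bases before it as written. The second window is shown because Rxra is the shared partner of the receptors above. Capitals mark the half-sites.
Rxra start 2: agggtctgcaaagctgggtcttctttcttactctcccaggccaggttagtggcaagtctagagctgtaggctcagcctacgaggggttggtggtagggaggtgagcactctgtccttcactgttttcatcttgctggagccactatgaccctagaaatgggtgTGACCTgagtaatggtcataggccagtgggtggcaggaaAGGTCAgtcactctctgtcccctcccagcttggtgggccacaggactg
The windows of Ppara, Nr1d1, Nr1h3 and Rxrb, the other receptors among the 5 smallest p, hold none of the 3 motifs.

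Nr1h3 encodes LXR alpha, the oxysterol sensor of the liver, and was the only gene of the 39 to pass at 3 weeks. Its arrays read -0.04, -0.66, -0.22, -0.55, -0.18 and -1.05, all below 0, with a mean of -0.45 ± 0.38 (limma adjusted p = 0.00419). The values with each array left out were -0.53 to -0.36 and kept the call, which ended with the week fitted by itself. Nr1h3 was the only gene of the 39 with a dye effect (limma adjusted p = 0.0379), and the 3 arrays with knockout RNA in Cy3 were its numbers 1, 2 and 5. Array 6, where it was lowest, was also the array on which 10 markers of exocrine pancreas had a median of -3.95, against -0.19 to 0.06 on the other 3-week arrays; the part of that tissue in the Nr1h3 value was not tested. At 6, 9 and 20 weeks Nr1h3 averaged -0.17 ± 0.25, -0.01 ± 0.32 and 0.00 ± 0.23 and did not pass.

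Nr1h5, an FXR relative that responds to lanosterol in the mouse, and Vdr, the vitamin D receptor, kept their weekly means within 0.03 and 0.05 of 0. Of 16 measured LXR targets, none passed in the limma fit at 3 weeks, when Nr1h3 was lower (1 higher and 2 lower at an unadjusted p under 0.05), and 3, 4 and 3 were higher at 6, 9 and 20 weeks, with 1, 1 and 0 lower. Lpl, lipoprotein lipase, averaged 0.17, 1.02, 1.09 and 1.22 and Abcg1, a cholesterol exporter of macrophages, 0.12, 0.36, 0.46 and 0.48, both past the test from 6 weeks on. Pltp, the phospholipid transfer protein, passed at 9 weeks with 0.43 ± 0.28. Mlxipl, the carbohydrate-responsive factor ChREBP, was lower at 6 and 9 weeks, at -0.37 and -0.29.

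**Figure D3:**
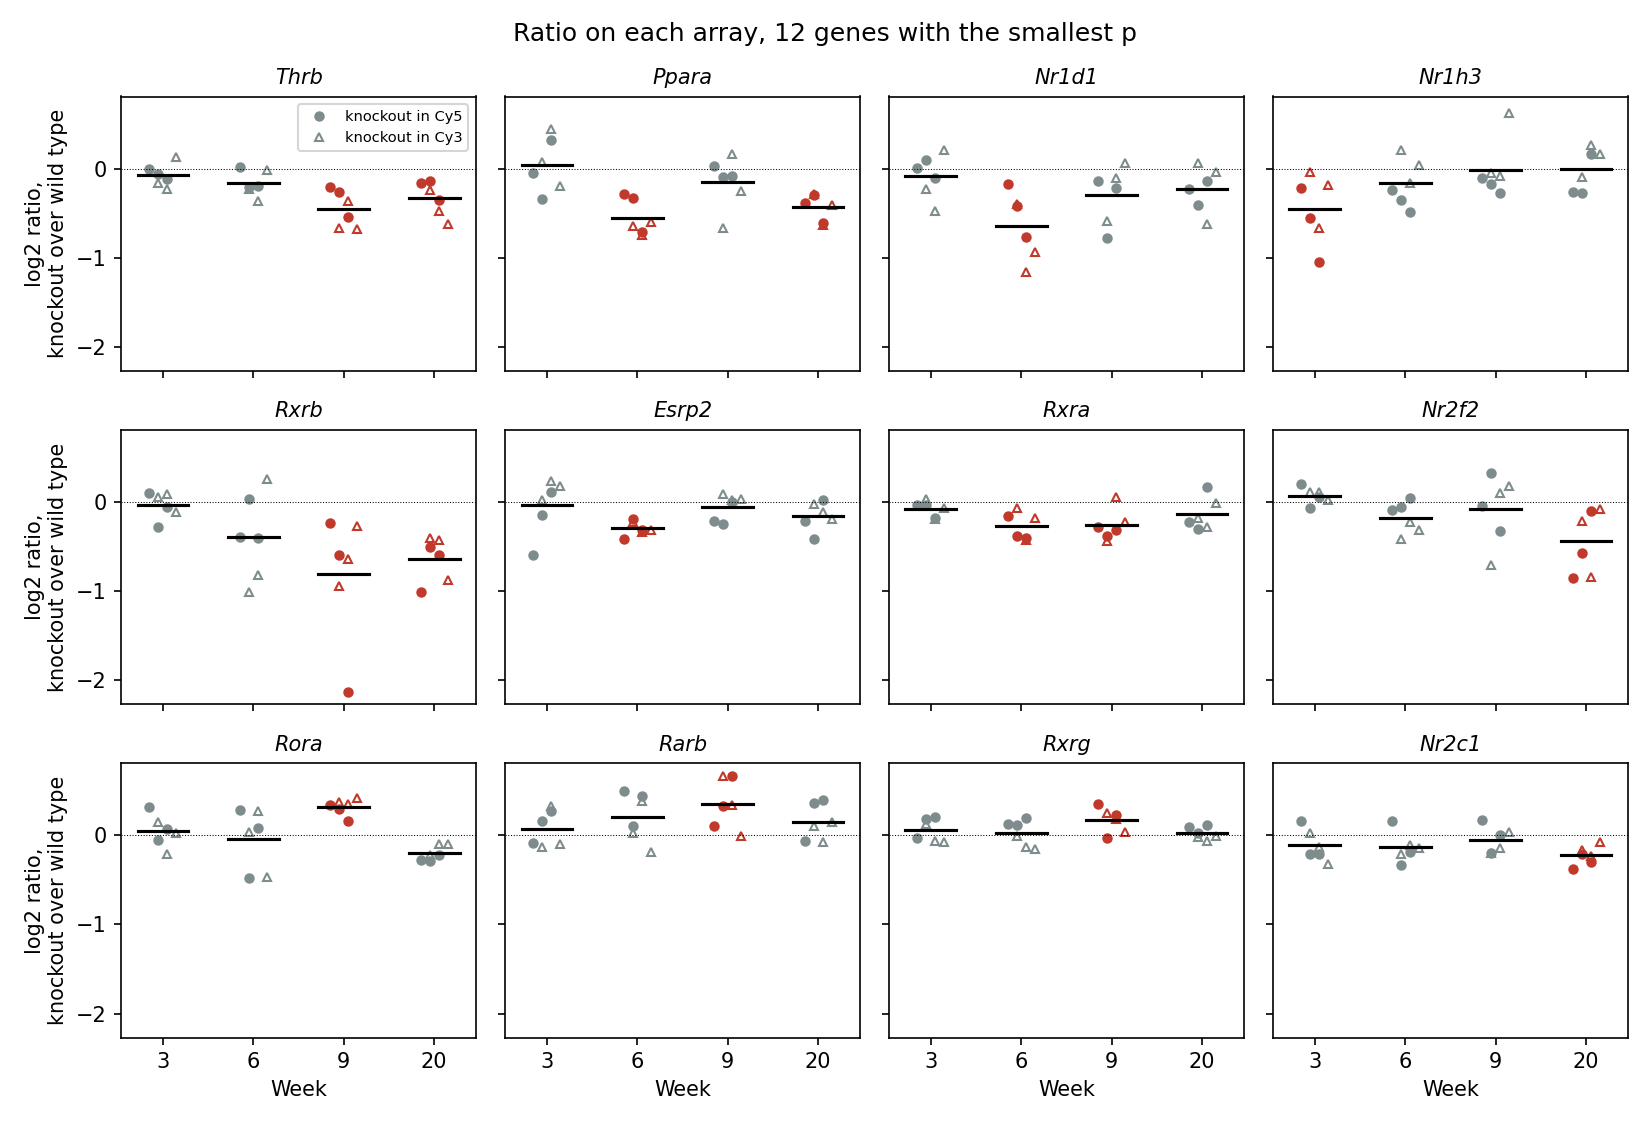
Log2 ratio of knockout over wild type on each array (points; filled circles have knockout RNA in Cy5, open triangles in Cy3) at 3, 6, 9 and 20 weeks for the 12 genes with the smallest p; black bars are weekly means of 6 arrays and red marks a week past the adjusted p of 0.05. All 6 points of Thrb at 9 and 20 weeks and of Ppara at 6 and 20 weeks lie below 0, and 1 point of Rxrb at 9 weeks, at -2.13, lies apart.

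The core-clock receptors act on shared DNA elements, the Rev-erbs as repressors and the RORs as activators. Nr1d1, Rev-erb alpha, was lower at 6 weeks. Its arrays read -0.40, -0.17, -0.42, -0.77, -1.16 and -0.93, all below 0, with a mean of -0.64 ± 0.37 (limma adjusted p = 4.94e-04), and the call was kept under every alternative setting and with each array left out. In the other weeks Nr1d1 averaged -0.08 ± 0.25, -0.30 ± 0.32 and -0.23 ± 0.25 at 3, 9 and 20 weeks, without passing; the 9-week value was -0.38 without array 6 (limma adjusted p = 0.0358). The hour at which livers were taken is not given in the sources used here.

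Nr1d2, Rev-erb beta, was lower at 20 weeks, when its arrays read -1.05, -0.61, -0.41, -0.15, -0.01 and -0.25. The mean was -0.41 ± 0.38 (limma adjusted p = 0.0196), with the lowest ratios on arrays 1 and 2, and the call ended without either of them (highest value -0.28, limma adjusted p up to 0.124). Its means at 3, 6 and 9 weeks were 0.01, 0.08 and 0.00.

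Rora rose at 9 weeks on all 6 arrays, with 0.34, 0.37, 0.35, 0.29, 0.16 and 0.42 and a mean of 0.32 ± 0.09 (limma adjusted p = 0.00639), kept with each array left out. At 20 weeks all 6 arrays lay below 0, from -0.29 to -0.10, with a mean of -0.20 ± 0.09 that did not pass (limma adjusted p = 0.110). With each week fitted by itself it did pass as lower there (limma adjusted p = 0.0166), and the 9-week rise was kept. The arrays of those weeks therefore did not overlap, and the share of all items for which this holds was not computed. At 3 and 6 weeks the Rora arrays straddled 0. Rorb, a form of brain and retina, stayed between -0.01 and 0.00.

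Of 16 measured clock genes, 0, 1, 1 and 2 were higher and 1, 2, 1 and 0 lower at 3, 6, 9 and 20 weeks. Over all items, 10.8% and 10.4% were higher and 10.1% and 10.9% lower at 6 and 9 weeks. The median of the clock genes was -0.0354, 0.0013, 0.0252 and 0.0416, against -0.0025, -0.0021, -0.0014 and -0.0034 for all items. Hlf, a clock output factor, was lower at 3, 6 and 9 weeks, at -0.32, -0.27 and -0.30. Npas2, an activator that the Rev-erbs repress, averaged 1.03 ± 0.69 at 6 weeks and passed there (limma adjusted p = 0.0458), with SDs of 0.69 to 1.27 over the weeks. Csnk1e, a kinase that marks PER proteins for decay, rose at 9 weeks to 0.34 ± 0.18. Nfil3, a repressor also under Rev-erb control, lay between -0.34 and -0.15 and passed in no single week.

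Among the steroid receptors, calls were made at 20 weeks only. Esr1, oestrogen receptor alpha and the liver form, had arrays of -0.11, -0.39, -0.31, -0.22, 0.08 and -0.23 there, with a mean of -0.20 ± 0.17 (limma adjusted p = 0.0356). Esr2, oestrogen receptor beta, had -1.06, -0.55, -0.32, -0.47, 0.01 and -0.48, with a mean of -0.48 ± 0.35 (limma adjusted p = 0.0234). In both, array 5 was the one above 0.

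Both oestrogen receptor calls ended with some of the arrays left out. That of Esr1 ended without array 2, 3, 4 or 6 (values of -0.25 to -0.16, limma adjusted p up to 0.155) and with the week fitted by itself, and that of Esr2 without array 1, 2 or 4 (values of -0.56 to -0.38, limma adjusted p up to 0.119). At 3, 6 and 9 weeks Esr2 had averaged 0.22 ± 0.41, 0.32 ± 0.37 and 0.25 ± 0.35, past the test in none; its 9-week value was 0.40 without array 2 (limma adjusted p = 0.0414). Esr1 had stayed between -0.08 and 0.00 in those weeks.

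The oestrogen-related receptors, which bind no oestrogen and control mitochondrial genes, did not pass in any single week. Esrra ranged over the weeks from -0.26 ± 0.36 at 3 weeks to 0.25 ± 0.23 at 20 weeks. Its 3-week value was -0.36 without array 2 (limma adjusted p = 0.0270) and -0.48 without arrays 1 and 2 (limma adjusted p = 0.00500), and its 20-week value passed as higher with that week fitted by itself (limma adjusted p = 0.0348). Esrrb lay between -0.14 and -0.01 and Esrrg between -0.14 and -0.07; at 9 weeks Esrrb was -0.17 without array 4 and Esrrg -0.24 without array 6, each then past the test (limma adjusted p of 0.0413 and 0.00821).

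Nr3c1, the glucocorticoid receptor, was lower at 20 weeks, with -0.84, -0.64, -0.50, -0.11, -0.28 and -0.12 on arrays 1 to 6. All lay below 0, and the mean was -0.41 ± 0.30 (limma adjusted p = 0.0380). The call ended without array 1, 2, 3 or 6 (values of -0.50 to -0.30, limma adjusted p up to 0.187) and with the closest arrays of opposite dye averaged. In earlier weeks Nr3c1 averaged -0.03, 0.07 and -0.02, and at 6 weeks its arrays spread from -0.59 to 0.80.

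Of 15 measured glucocorticoid targets, 1, 2, 1 and 1 were higher and 1, 2, 2 and 2 lower over the weeks. Hsd11b1, the enzyme that regenerates active glucocorticoid in liver, was lower in all 4 weeks, between -1.24 and -0.87. Klf9, a factor induced by glucocorticoids and by thyroid hormone, averaged -0.32, -0.53, -0.66 and -0.60 and was lower from 6 weeks on. Tsc22d3, which encodes GILZ, lay between -0.51 and -0.27 and passed in no single week. Lcn2, also an acute phase protein of injured liver, was higher in all 4 weeks, between 2.48 and 3.38.

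Nr4a1, an immediate early receptor with no known need for a ligand, rose at 6 weeks to 0.32 ± 0.25, with 5 of 6 arrays above 0 and array 2 at -0.13 (limma adjusted p = 0.0351). The call ended without array 1, 3, 4, 5 or 6 (values of 0.25 to 0.41, limma adjusted p up to 0.148), and also with arrays scaled to a common spread, the week fitted by itself or the closest arrays of opposite dye averaged. With each week fitted by itself, Nr4a1 passed as higher at 9 weeks (limma adjusted p = 0.0394). At 9 weeks all 6 arrays of Nr4a1 lay above 0, from 0.10 to 0.45, and the mean of 0.26 ± 0.13 did not pass (limma adjusted p = 0.0855). Its relatives Nr4a2 and Nr4a3 stayed between -0.17 and 0.05 and between -0.05 and 0.00.

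Of 15 measured immediate early genes, 1, 4, 7 and 5 were higher in the limma fit and 0 lower in every week, also 0 at an unadjusted p under 0.05. Jun, a subunit of AP-1, averaged 0.37, 1.45, 1.15 and 1.32 and Klf6, a zinc finger factor, 0.55, 0.58, 0.67 and 0.69, with Klf6 past the test in all 4 weeks and Jun from 6 weeks on. Myc was higher at 9 and 20 weeks, at 0.65 and 0.81, and Atf3, a stress-induced factor, at 6 and 9 weeks, at 0.27 and 0.26.

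Among the Nr2 orphan receptors, Nr2f2, which encodes COUP-TFII, was lower at 20 weeks. Its arrays read -0.85, -0.57, -0.21, -0.84, -0.08 and -0.10, all below 0, with a mean of -0.44 ± 0.36 (limma adjusted p = 0.00943). The call ended without array 1 (highest value with any array left out -0.35, limma adjusted p up to 0.0597) and with the week fitted by itself. Nr2c1, the testicular receptor that represses direct repeats, was lower at 20 weeks too, with -0.38, -0.21, -0.16, -0.23, -0.08 and -0.30 and a mean of -0.23 ± 0.10 (limma adjusted p = 0.0181). Its call ended without array 1 or array 6 (values of -0.26 to -0.19, limma adjusted p up to 0.0826).

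Nr2c1 also passed at 6 weeks when array 2 was left out, at -0.20 (limma adjusted p = 0.0299). Nr2c2, its closest relative, lay between -0.13 and 0.00. Nr2e1, a receptor of neural stem cells, and Nr2f1, COUP-TFI, each lay between -0.03 and 0.09. Nr2f6 had the largest SD among the genes that never passed, 0.57, with weekly means from -0.07 to 0.16.

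Nr5a2, the liver receptor homologue that drives bile acid synthesis genes, was lower at 20 weeks, with -0.58, -0.77, -0.30, 0.03, -0.16 and -0.34. The mean was -0.35 ± 0.29 (limma adjusted p = 0.0294), and array 4 was the one above 0. The call ended without array 1, 2, 3 or 6 (values of -0.43 to -0.27, limma adjusted p up to 0.152) and with the closest arrays of opposite dye averaged. At 3, 6 and 9 weeks it averaged 0.16, -0.04 and 0.03. Nr5a1, the steroidogenic factor of adrenal and gonad, Nr6a1, the germ cell nuclear factor, and Nr0b1, a receptor without a DNA-binding domain, had weekly means within 0.06, 0.07 and 0.03 of 0.

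Of the genes that match the symbols without being receptors, Esrp2 was lower at 6 weeks and had the narrowest spread of any call there. Its arrays read -0.22, -0.41, -0.19, -0.31, -0.34 and -0.31, all below 0, with a mean of -0.30 ± 0.08 (limma adjusted p = 0.00355), kept with each array left out. Nr2c2ap lay between 0.01 and 0.15 and passed in no single week. Without these genes the 37 receptors gave 1, 5, 6 and 10 calls.

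At 20 weeks the 10 lower receptors came from families with unlike ligands: Thrb, Ppara, Rxrb, Nr1d2, Esr1, Esr2, Nr3c1, Nr2c1, Nr2f2 and Nr5a2. On arrays 1 to 6 their median ratio was -0.71, -0.52, -0.30, -0.33, -0.12 and -0.32, while the median of all 39 genes was -0.13, -0.09, -0.16, -0.07, -0.05 and -0.06. Of the 10, 4 had their 2 lowest ratios on arrays 1 and 2: Esr2, Nr1d2, Nr3c1 and Nr5a2. The others had at least 1 of these elsewhere, with Thrb lowest on arrays 4 and 5 and Ppara on arrays 4 and 6. The 6 arrays fell below 0 for 7 of the 10, and the exceptions were Esr1 and Esr2 on array 5 and Nr5a2 on array 4. Ppara and Thrb were the only 2 of the 10 that passed without arrays 1 and 2.

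**Figure D4:**
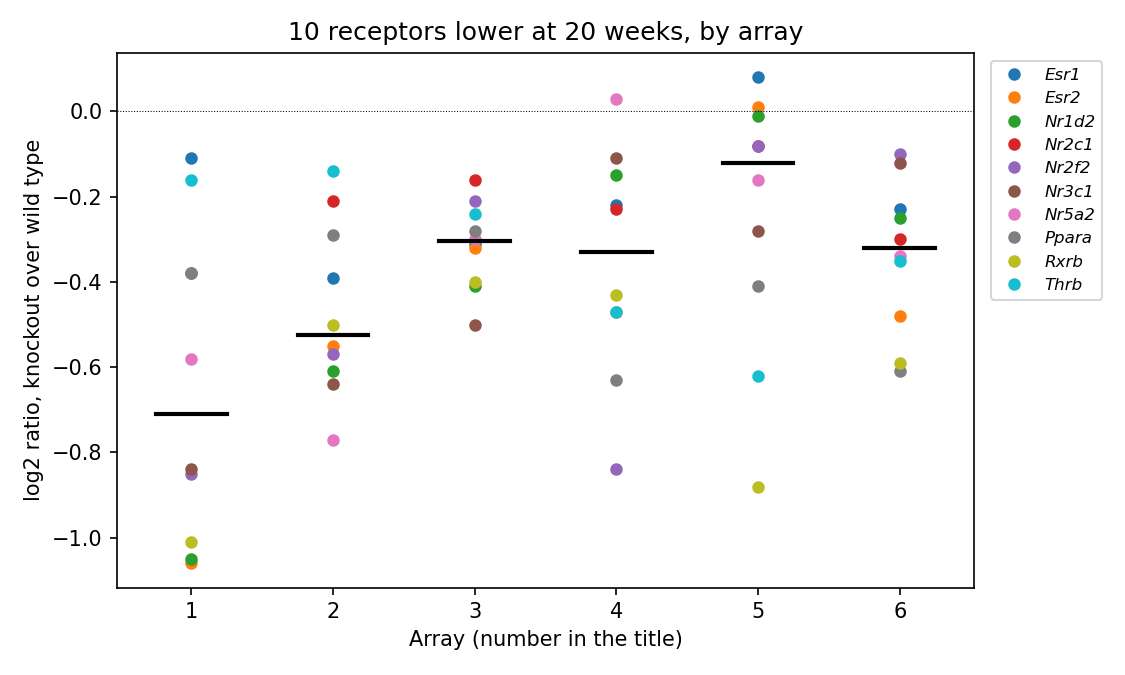
Log2 ratio of knockout over wild type at 20 weeks (vertical axis) of the 10 receptors called lower (coloured points) on each of the 6 arrays (horizontal axis, numbered as in the titles); black bars are the median of the 10 on each array. The medians of these 10 chosen genes are lowest on arrays 1 and 2, at -0.71 and -0.52, and highest on array 5, at -0.12.

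Markers of some other cell types moved with the genotype in the same RNA. At 20 weeks 7 of 10 macrophage, 10 of 14 stellate cell and myofibroblast and 6 of 8 cholangiocyte markers were higher in the limma fit. None of these was lower (1, 0 and 0 at an unadjusted p under 0.05). Of 8 hepatocyte markers 1 was higher and 1 lower. Among all items 8.09% were higher and 5.37% lower in that week. Of 12 endothelial and 7 adipose markers 1 each was lower, and of 10 lymphocyte markers 1 was higher. No exocrine pancreas marker of 10 and no proliferating cell marker of 7 passed (1 lower and 1 higher at an unadjusted p under 0.05). On the 20-week arrays the macrophage median ran from 0.17 on array 5 to 0.86 on array 1, the stellate median from 0.59 to 1.13, the cholangiocyte median from 0.28 to 1.08 and the hepatocyte median from -0.34 to 0.18. At 3, 6 and 9 weeks the markers called higher numbered 6, 8 and 7 for macrophages, 6, 13 and 13 for stellate cells and 3, 6 and 7 for cholangiocytes. Those of proliferating cells numbered 5, 6 and 4. The part of all these cell types in the receptor ratios was not tested.

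Whether the knockout effect differed between weeks was asked with a moderated F test. It passed for 4 of the 39 genes (10.3%, against 5.08% of all items): Ppara (limma adjusted p = 0.0277), Thrb (limma adjusted p = 0.0365), Rora and Esr2 (limma adjusted p = 0.0373 for both). All 4 calls ended with the closest arrays of opposite dye in each week averaged as 1 replicate, a setting that allows for a dye swap of the same mice. Those of Thrb and Rora ended also with the replicate number as a block. Quantile normalization ended the call of Thrb, and a fit without a dye term those of Thrb and Esr2. Without both arrays 1 and 2 of 3 weeks the calls of Ppara and Thrb ended. Without both arrays 1 and 2 of 20 weeks those of Ppara, Rora and Esr2 ended. Of the 24 arrays left out in turn, 4 ended the call of Ppara, 9 that of Thrb, 13 that of Rora and 12 that of Esr2, with limma adjusted p up to 0.0601, 0.0788, 0.0738 and 0.122. Those for Ppara were arrays 1 and 6 at 3 weeks and 4 and 5 at 6 weeks. Those for Thrb were arrays 1, 3, 4 and 5 in week 3, 2, 5 and 6 in week 9 and 4 and 6 in week 20. For Rora they were arrays 1, 5 and 6 at 3 weeks and all but array 5 at 9 and at 20 weeks. For Esr2 they were arrays 1 and 5 at 3 weeks, 1, 3 and 6 at 6 weeks, 3 and 5 at 9 weeks and all but array 5 at 20 weeks.

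Against 3 weeks, the ratio of Ppara differed by -0.59 ± 0.14 (SE) at 6 weeks (limma adjusted p = 0.0268) and by -0.48 ± 0.14 at 20 weeks (limma adjusted p = 0.0454). The difference for Thrb was -0.38 ± 0.09 at 9 weeks (limma adjusted p = 0.0172). At 20 weeks Esr2 differed from 3 weeks by -0.70 ± 0.20 (limma adjusted p = 0.0434) and Esrra by 0.51 ± 0.14 (limma adjusted p = 0.0405). These were 1, 1 and 3 of the 39 genes for 6, 9 and 20 against 3 weeks, or 2.56%, 2.56% and 7.69%, beside 1.30%, 3.67% and 4.57% of all items. Between neighbouring weeks, 0 of the 39 passed for 9 against 6 weeks and for 20 against 9 weeks, where 0.0767% and 0.0959% of all items passed. At an unadjusted limma p under 0.05, 4 were higher and 2 lower for 9 against 6 weeks, and 2 and 9 for 20 against 9 weeks. The shares of all items just given are for adjusted p, and those at the unadjusted p were not computed. The difference of Rora, -0.53 ± 0.12 between 20 and 9 weeks, had a limma adjusted p of 0.0698.

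Averaged over the 4 weekly means, 15 of the 39 genes passed (38.5%, against 38.4% of all items). The 10 lower ones were 25.6% of the genes, against 19.7% of all items, and the 5 higher ones 12.8%, against 18.7%. Rxrb had the lowest mean, -0.46 ± 0.09 (SE over 24 arrays, limma adjusted p = 1.90e-04), and Thrb the smallest p, at -0.25 ± 0.03 (limma adjusted p = 1.02e-06), with 22 of 24 arrays below 0. Nr1d1 at -0.31, Ppara at -0.27, Rxra at -0.19, Nr1h3 and Nr2f2 at -0.16 each, Esrp2 and Nr2c1 at -0.13 each and Esrrg at -0.11 were the other lower genes. Rarb, Nr4a1 and Pparg were higher by 0.19 or more, Nr2c2ap by 0.10 and Rxrg by 0.07. The call of Nr2f2 ended without array 5 at 9 weeks or array 1 or 4 at 20 weeks (highest value -0.13, limma adjusted p up to 0.0520). It also ended without both arrays 1 and 2 of 20 weeks. That of Rxrg ended with quantile normalization and without both arrays 1 and 2 of 3 weeks. That of Nr2c2ap ended with the closest arrays of opposite dye averaged. Esrrg and Nr2c2ap passed here although neither passed in a single week with the weeks fitted together; Nr2c2ap did at 6 weeks with that week fitted by itself (limma adjusted p = 0.0464).

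Receptors act through coregulators, which add or remove chromatin marks or bridge to the transcription machinery. Of 22 measured coregulators, 1, 5, 2 and 2 were higher and 3, 2, 2 and 1 lower at 3, 6, 9 and 20 weeks. Crebbp, an acetyltransferase, averaged 0.12, 0.36, 0.29 and 0.27 and Prmt1, an arginine methyltransferase, 0.26, 0.36, 0.30 and -0.06, with Crebbp past the test from 6 weeks on and Prmt1 up to 9 weeks. Tbl1xr1, an exchange factor of the corepressor complex, rose at 6 weeks to 0.25 ± 0.14. Ppargc1b, a coactivator of PPAR and oestrogen-related receptors, averaged -0.30, -0.42, -0.51 and -0.41 and was lower at 6 and 9 weeks (limma adjusted p of 0.0438 and 0.0140).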

How the data were processed

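The authors deposited a log ratio per feature and array. Per the labels' protocols, RNA was purified by an RNeasy protocol and labelled with a FairPlay kit, and the arrays are spotted cDNA. No source used here gives the log base, background correction or within-array normalization, so the deposited values were treated as log2. They ran from -8.45 to 7.53, with array medians of -0.037 to 0.015, no missing value and 0 columns unaccounted for. Within a week, arrays of opposite dye correlated with a median r of -0.29, -0.47, -0.51 and -0.36. Arrays on which Cy5 marked the wild type therefore had their sign turned. A ratio of Cy5 to Cy3 is likely but not stated, and rests on Abcb4.

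Values were joined to probes by a column-wise grid layout with reversed axes, settled from the data: over 48 accessions spotted at least 10 times, copies correlated with a mean median r of 0.664, against 0.00533 in a direct join. All gene names depend on this join. Of 22575 features, 18218 had 1 gene, 16 several and 4341 none, and probes of a gene were averaged.

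Arrays were centred on their medians, and limma 3.58.1 (R 4.3.3; lmFit, eBayes) fitted 4 weekly means and 1 dye term to the 24 arrays. Benjamini-Hochberg adjustment ran over 20861 items, with a threshold of 0.05. All adjusted p-values come from limma. The fit was also run on simulated data with independent noise on every array. That run cannot speak to mice repeated between arrays. A dye effect passed for 11.5% of items. Alternatives changed centring, scaling, the dye term, the arrays fitted, a replicate block, array weights, the prior and the probe rule. They also averaged the closest arrays of opposite dye and left out each array. The probe rule could not change the values of the 39 genes, each read by 1 probe. Weak probes were not told from strong ones, and probes of related receptors may bind each other's transcripts.

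The 12 genes with the smallest weekly p are given array by array where they passed, and of each gene list at most 4 members are named, those ranking first by p in the 4-week mean. Promoter windows are the 250 bases upstream of a RefSeq start and exist for 35 of the 39 genes. The members and lists were chosen with earlier results of these data known.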

Additional observations from a re-analysis of the deposited data

Results flagged for a closer look

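In 6 of 156 groups of a gene and a week, 1 array stood apart from the other 5 by more than Dixon's limit for 6 values, a gap over 0.625 of the range; chance gives about 1 in 20. Nr1h3 was 0.62 on array 6 at 9 weeks, against -0.27 to -0.05 on the others. Nr2c2 was 0.33 on array 2 at 3 weeks, against -0.15 to 0.02. Nr5a2 was -0.24 on array 4 at 3 weeks, against 0.14 to 0.35, and -0.67 on array 2 at 9 weeks, against 0.05 to 0.41. Rxrb was -2.13 on array 5 at 9 weeks, against -0.94 to -0.24. Thra was -0.41 on array 4 at 6 weeks, against 0.11 to 0.37.

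The knockout effect differed between weeks in the moderated F test for Ppara (limma adjusted p = 0.0277), Thrb (limma adjusted p = 0.0365), Esr2 and Rora (limma adjusted p = 0.0373 for both). All 4 calls ended with the closest arrays of opposite dye averaged, and those of Thrb and Rora with the replicate block. Further settings that ended some of them are given with the F test above. Single contrasts passed for Ppara at 6 minus 3 weeks (-0.59) and 20 minus 3 weeks (-0.48), Thrb at 9 minus 3 weeks (-0.38), Esr2 at 20 minus 3 weeks (-0.70) and Esrra at 20 minus 3 weeks (0.51). For Rora all 6 arrays lay below 0 at 20 weeks and all 6 above 0 at 9 weeks, a difference of -0.53 that did not pass (limma adjusted p = 0.0698). Every gene of the list was searched over all pairs of weeks for such a split, and Rora alone had it. The share of all items with such a split was not computed.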

How the results depend on the processing

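No value of a receptor changed sign past the test under any setting. Of 23 calls of a gene in a week, 8 were kept under every alternative and with every array left out: Esrp2, Nr1d1, Ppara and Rxra at 6 weeks, Rora and Thrb at 9 weeks, and Ppara and Thrb at 20 weeks. The other 15 ended under at least 1 alternative, and 11 ended with at least 1 array left out. Calls at 3 and 20 weeks faced 11 alternatives and those at 6 and 9 weeks 10. The extra alternative left out arrays 1 and 2 of the week together. At 20 weeks it was the only alternative that ended the calls of Esr2, Nr1d2, Nr2c1 and Rxrb. These calls also ended with 1 array left out. Of the 15 calls over the 4-week mean, 12 were kept, and those of Nr2f2, Nr2c2ap and Rxrg ended under at least 1 setting. The count at 3 weeks, 1, became 2 with arrays scaled to a common spread, 0 with the week fitted by itself and 2 without arrays 1 and 2, while the share of all items, 7.39%, became 11.9%, 2.52% and 5.65%. At 9 weeks 6 became 3 with the week fitted by itself and 10 with array weights, while the share of all items, 21.3%, became 11% and 24.5%. At 20 weeks 10 became 2 without arrays 1 and 2. Leaving out arrays 1 and 2 together, at 3 or at 20 weeks, was chosen after seeing the data. Within each of these weeks both arrays had knockout RNA in the same dye. The 4 genes of the F test became 2 without a dye term, 0 with the closest arrays of opposite dye averaged and 1 without arrays 1 and 2 of 20 weeks. Leaving out 1 array gave 1 to 2, 4 to 6, 5 to 8 and 3 to 9 genes at 3, 6, 9 and 20 weeks. The shares of all items were then 5.78% to 6.9%, 14.1% to 19.1%, 15.8% to 20.8% and 8.73% to 11.7%. The F test gave 0 to 5 genes and the 4-week mean 14 to 16. For the F test and the 4-week mean, the shares of all items under each setting were not computed.

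Whether the replicate numbers pair arrays of different weeks was not settled. Arrays of 1 number in different weeks correlated with r from -0.50 to 0.47 (median 0.0155), against a median of 0.0088 for other numbers. For 9 of 24 arrays the best partner in another week had the same number, and the number that chance would give was not computed. With the replicate block the F test called 2 genes, and the call of Pparg at 6 weeks ended. The causes of these changes were not tested, and 6 arrays a week limit the precision.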

Other observations

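Of 7 further nuclear receptors on the arrays that lie outside the symbol pattern or were left out of it, Nr1i3, the constitutive androstane receptor of hepatocytes, was lower in all 4 weeks. Its means were -0.64 ± 0.22, -0.66 ± 0.10, -0.47 ± 0.35 and -0.58 ± 0.22 at 3, 6, 9 and 20 weeks, with 24 of 24 arrays below 0 and limma adjusted p of 8.43e-05, 2.97e-05, 7.12e-04 and 1.99e-04. The F test found no difference between its weeks (limma adjusted p = 0.754). Its close relative Nr1i2, the pregnane X receptor, was higher at 9 and 20 weeks, at 0.37 ± 0.16 and 0.39 ± 0.37 (limma adjusted p of 0.0358 and 0.0404), and both calls ended with at least 1 array left out (limma adjusted p up to 0.121 and 0.179).

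Of 19 measured targets that the pair share in large part, 7, 4, 7 and 4 were higher and 6, 7, 3 and 4 lower over the weeks. Cyp2c37 and Cyp2c29, cytochromes P450, lay between -2.12 and -1.55 and between -1.01 and -0.82 and were lower in every week. Gstm3 and Gstm1, glutathione transferases, lay between 0.91 and 2.16 and between 0.86 and 2.09 and were higher in every week. Probes of these families can bind transcripts of close relatives.

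Nr0b2, the bile acid-induced corepressor SHP, was lower at 6 and 9 weeks, at -0.87 ± 0.30 and -0.56 ± 0.75 (limma adjusted p of 0.00219 and 0.0394), the second ending with at least 1 array left out (limma adjusted p up to 0.255). Nr1h4, the bile acid receptor FXR, was lower at 3 weeks at -0.56 ± 0.52 (limma adjusted p = 0.00788), which also ended with at least 1 array left out (limma adjusted p up to 0.0512). At 20 weeks Nr1h4 averaged 0.34 ± 0.30, with 5 arrays above 0 and 1 below, and did not pass (limma adjusted p = 0.0891). Its knockout effect differed between weeks in the moderated F test (limma adjusted p = 0.0279). Hnf4g was lower at 9 weeks at -0.27 ± 0.26 (limma adjusted p = 0.00964, up to 0.0746 with an array left out). Hnf4a and Pgr did not pass in any week. Of 16 measured HNF4A targets, 3, 2, 5 and 4 were lower at 3, 6, 9 and 20 weeks and 0 higher in the limma fit (0, 1, 1 and 1 at an unadjusted p under 0.05). Slc10a1, the bile salt uptake carrier, was lower in all 4 weeks, between -0.56 and -0.27. Apoa2, an HDL apolipoprotein, was lower at 6 and 9 weeks, at -0.72 and -0.50. F9, a clotting factor, and Apoc3, an apolipoprotein that slows lipolysis, were lower at 3 weeks, at -0.73 and -1.15.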
